A study of Mus musculus with 12 samples.

Results

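Epor, Rhd, Alas2 and Slc4a1 are 4 genes of red blood cell formation, described here among 9984 genes measured in stem and progenitor cells sorted from mice with less Erg or none. Erg encodes a DNA-binding protein of the ETS family that blood stem cells depend on. Each was taken by its gene symbol, and each was represented by 1 probe set (10591660 for Epor, 10509002 for Rhd, 10602372 for Alas2 and 10391649 for Slc4a1). The genes were chosen by earlier results on these arrays, Epor and Rhd for their log2 difference in Erg+/- stem cells and Alas2 and Slc4a1 for theirs in Erg-/- progenitors, and all 4 came from a list already seen to lie higher with less Erg in both populations. Their differences in HSCs and in MPPs are therefore given below as a description with no test.

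Expression was measured on 12 Affymetrix arrays, with 3 samples in each of 4 groups of male mice on a C57Bl/6 background. Hematopoietic stem cells (HSCs, gated as lineage-negative, Sca-1+, c-kit+, CD150+ and CD48- after enrichment for c-kit) came from Erg+/+ mice and from Erg+/- mice, in which a general Cre deleter line had removed exon 11, which encodes part of the DNA-binding domain, from 1 allele. The sample titles call the Erg+/- mice knock-outs, and the genotype field was followed here. The multipotent progenitor (MPP) controls carried the floxed alleles, Erg fl/fl, but no Cre. The Erg-/- MPPs carried the same alleles together with Mx1-Cre, a Cre driven by an interferon-responsive promoter and so not restricted to blood cells. Both MPP groups had received pIpC, a synthetic RNA used to switch on interferon and with it Mx1-Cre, in 5 injections of 200 µl at 1.5 mg/ml, with sorting 2 weeks after the first injection. The 2 MPP groups therefore differ in Cre as well as in Erg, and these cannot be told apart. The labels give 2 gates for the MPPs, one CD150- and one CD150+ CD48-, and they give neither ages nor whether each sample was 1 animal, so a p-value here reflects only sample-to-sample spread, part of which may be technical.

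Arrays carry no read depth, and their number, 3 per group, limits the precision. Values are on a log2 scale, so a difference of 1 is a 2-fold change. Array medians lay between 5.41 and 5.54, and arrays of 1 group correlated at 0.9528 to 0.9743 across genes. Of 22 listed HSC-associated genes 5 were measured (Hoxa9, Mmrn1, Tgm2, Nupr1 and Ifitm1). All 5 were lower in control MPPs than in control HSCs with groups that did not overlap, and 4 of them passed the test there. Over all genes 8.54% were lower without overlap in this comparison and 0.631% were called lower. The list was chosen with earlier results of these arrays known, so these counts are a description and no check of the sorts. Erg itself and the genes of the surface proteins used for sorting are not analysed here, and the genotypes are taken from the labels.

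Red cells arise from multipotent progenitors through stages that depend first on the transcription factors GATA1, TAL1 and KLF1 and later on the hormone erythropoietin. Epor encodes the erythropoietin receptor, which signals through JAK2 and STAT5 and keeps committed erythroid progenitors alive. Alas2 encodes the erythroid form of 5-aminolevulinate synthase, the first and rate-limiting step of heme synthesis. Rhd encodes a membrane protein of the Rh family, and Slc4a1 encodes band 3, the chloride-bicarbonate exchanger that anchors the membrane to the spectrin skeleton. Alas2, Rhd and Slc4a1 are textbook products of late erythroid cells, and HSCs and MPPs lie upstream of all of these stages.

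The promoters are shown because the 4 genes were studied as an erythroid group, and the GATA motif is the shared element that textbooks give for such genes. The RefSeq promoter table (build GRCm38.p6) held entries for 3 of the 4 genes, Epor, Rhd and Alas2. Each line gives the 250 bases before the annotated start of the gene, 5′ to 3′ on the strand of the gene. Capitals mark the GATA hexamers, searched on both strands as AGATAA or AGATAG and, with another first letter, as TGATAA or TGATAG.
Epor, chr9:21963577-21963826, minus strand: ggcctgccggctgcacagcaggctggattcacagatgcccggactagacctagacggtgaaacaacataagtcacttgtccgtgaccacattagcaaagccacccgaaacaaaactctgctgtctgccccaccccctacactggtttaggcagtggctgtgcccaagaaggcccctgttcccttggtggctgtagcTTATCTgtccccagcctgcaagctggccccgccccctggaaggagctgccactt
Rhd, chr4:134864286-134864535, plus strand: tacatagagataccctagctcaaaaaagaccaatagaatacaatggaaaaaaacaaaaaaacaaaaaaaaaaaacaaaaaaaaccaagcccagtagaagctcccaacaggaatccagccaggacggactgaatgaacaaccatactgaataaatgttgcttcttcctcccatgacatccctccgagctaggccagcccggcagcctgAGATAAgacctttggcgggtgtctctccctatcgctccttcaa
Alas2, chrX:150547167-150547416, plus strand: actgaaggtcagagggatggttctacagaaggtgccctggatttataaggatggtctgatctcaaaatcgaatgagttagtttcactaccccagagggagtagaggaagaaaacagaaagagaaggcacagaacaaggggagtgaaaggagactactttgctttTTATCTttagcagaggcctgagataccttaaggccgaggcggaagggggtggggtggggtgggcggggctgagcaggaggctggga

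Each of these 3 windows held exactly 1 of the hexamers, and in each case it was AGATAA, on the opposite strand in Epor (bases 54 to 49 before the start) and Alas2 (bases 86 to 81) and on the gene's own strand in Rhd (bases 43 to 38). Across all 32851 promoters of the table, 9.99% held AGATAA and 26.5% held at least 1 of the 4 hexamers within the same 250 bases. Of 51 other genes of the red-cell pathway lists described below that have a promoter entry, 13 held AGATAA and 24 held any of the hexamers. The sequence CACCC, the core of motifs bound by KLF-family factors, occurred 2 times in Epor, 1 time in Rhd and 3 times in Alas2, against 52.0% of all promoters and 40 of the 51 with at least 1 copy. CGGAAG, an ETS-type motif, occurred 1 time in Alas2 and 0 times in Epor and Rhd, against 13.6% of all promoters and 9 of the 51. Its core GGAA, which most promoters hold (93.4% of all and 47 of the 51), occurred 2 times in Epor, 3 times in Rhd and 2 times in Alas2. These matches describe the letters only, since no binding was measured here.

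All 4 genes had their lowest mean in Erg+/+ HSCs and their second lowest in Erg fl/fl MPPs. For each gene both control means thus lay below both means of the groups with less Erg. Within each population this follows from the choice of genes already seen to lie higher with less Erg, so nothing is read from it. The upper 2 places differed between genes. Epor and Rhd were highest in Erg+/- HSCs, and Alas2 and Slc4a1 were highest in Erg-/- MPPs. In the order of group means, 10 of the 12 pairs of neighbouring groups had overlapping values, so most steps of this order do not exceed the spread between samples. The 2 pairs without overlap were Epor in Erg-/- against Erg fl/fl MPPs and Rhd in Erg fl/fl MPPs against Erg+/+ HSCs. In samples of many cells, more RNA per cell and more cells that express a gene cannot be told apart.

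**Figure D1:**
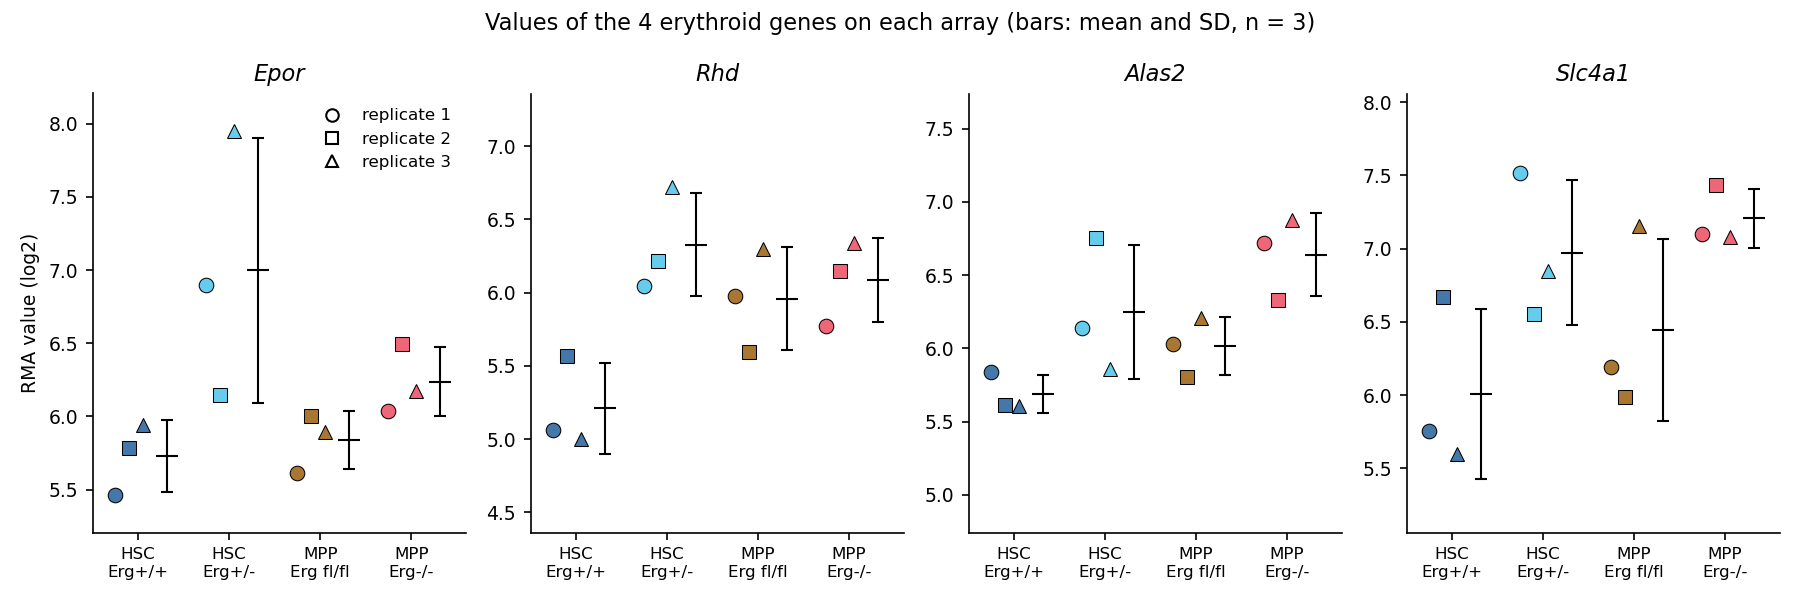
Values of Epor, Rhd, Alas2 and Slc4a1 (RMA value, log2, vertical axis; every panel spans 3 log2 units but has its own limits, and levels are not comparable between genes) in the 4 groups, with 1 symbol per array and the mean ± SD (n = 3) beside them. Erg+/+ HSCs have the lowest mean in every panel, and the widest scatter is that of Epor in Erg+/- HSCs, from 6.14 to 7.95.

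Epor, the receptor gene, had log2 values of 5.46, 5.79 and 5.94 in the Erg+/+ HSC samples (replicates 1, 2 and 3) and of 6.90, 6.14 and 7.95 in the Erg+/- HSC samples. All Erg+/- HSC samples lay above all Erg+/+ HSC samples, but they were also the most scattered group for this gene, with an SD of 0.906 against 0.245. The difference was 1.27 log2 units (SE 0.349), or 2.41-fold, and it was 0.79 without Erg+/- replicate 3. In MPPs the Epor values were 5.62, 6.00 and 5.90 in Erg fl/fl samples and 6.04, 6.50 and 6.17 in Erg-/- samples. The MPP groups did not overlap either, although the highest Erg fl/fl sample and the lowest Erg-/- sample lay next to each other. The MPP difference was 0.40 log2 units (SE 0.349), or 1.32-fold.

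Rhd, the Rh protein gene, had values of 5.06, 5.57 and 5.00 in Erg+/+ HSCs and of 6.04, 6.21 and 6.72 in Erg+/- HSCs, so all Erg+/- samples lay above all Erg+/+ samples. Its difference was 1.12 log2 units (SE 0.25), or 2.17-fold, and the 2 groups were about equally scattered (SD 0.351 and 0.312). Leaving out 1 HSC array at a time gave 0.92 to 1.30 log2 units. In MPPs Rhd stood at 5.98, 5.60 and 6.30 in Erg fl/fl samples and at 5.77, 6.15 and 6.34 in Erg-/- samples. These values interleave, and the difference was 0.13 log2 units (SE 0.25). Its sign turned, to -0.05, without Erg fl/fl replicate 2.

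Alas2, the heme synthesis gene, had values of 6.03, 5.81 and 6.21 in Erg fl/fl MPPs and of 6.72, 6.33 and 6.87 in Erg-/- MPPs, and the groups did not overlap. Its difference in MPPs was 0.63 log2 units (SE 0.232), or 1.54-fold, and 0.51 to 0.78 with 1 MPP array left out. In HSCs Alas2 stood at 5.84, 5.62 and 5.61 in Erg+/+ samples and at 6.14, 6.75 and 5.86 in Erg+/- samples. The Erg+/- HSC samples again lay above all Erg+/+ samples, by a narrow margin for replicate 3. That difference was 0.56 log2 units (SE 0.232), or 1.48-fold, and 0.31 without Erg+/- replicate 2.

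Slc4a1, the band 3 gene, had values of 6.19, 5.99 and 7.16 in Erg fl/fl MPPs and of 7.10, 7.44 and 7.08 in Erg-/- MPPs. The groups overlapped, since Erg fl/fl replicate 3 lay above 2 of the Erg-/- samples. The difference was 0.76 log2 units (SE 0.355), or 1.70-fold. In HSCs Slc4a1 stood at 5.75, 6.67 and 5.60 in Erg+/+ samples and at 7.52, 6.55 and 6.85 in Erg+/- samples. Here 2 of 3 Erg+/- samples lay above every Erg+/+ sample. The HSC difference was 0.97 log2 units (SE 0.355), or 1.95-fold.

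Against the background, 6.06% of all 9984 genes had Erg+/- HSC samples wholly above Erg+/+ samples and 4.36% had Erg-/- MPP samples wholly above Erg fl/fl samples. Of the 4 genes, 3 were apart in this way in HSCs (Epor, Rhd and Alas2) and 2 in MPPs (Epor and Alas2). Because the genes were picked for high values in these groups, nothing is read from those shares. At adjusted p under 0.05, 0.02% of all genes were called in HSCs (1 higher, 0.01%, and 1 lower) and 0.0801% in MPPs (0 higher and 8 lower). At an unadjusted p under 0.05 the shares of all genes were 6.32% and 4.79%. The MPP difference minus the HSC difference was -0.87 log2 units for Epor, -0.99 for Rhd, 0.06 for Alas2 and -0.20 for Slc4a1, with SEs of 0.494, 0.354, 0.328 and 0.502. These are given without a test because both differences served to pick the genes.

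The difference between the 2 control groups was not used to pick the genes, although the arrays of both groups were. Control MPPs minus control HSCs gave 0.11 log2 units for Epor (SE 0.349), 0.75 for Rhd (SE 0.25), 0.33 for Alas2 (SE 0.232) and 0.44 for Slc4a1 (SE 0.355). None of these 4 passed over all genes, with adjusted p by limma of 0.873, 0.128, 0.409 and 0.473 in the same order, and 1.28% of all genes did (65 higher, 0.651%, and 63 lower, 0.631%, or 46 and 91 when arrays were centred on their medians). For Rhd the control MPP samples lay above all control HSC samples, which was so for 18.5% of all genes, at an unadjusted p of 0.0111, where 22.3% of all genes were under 0.05. This contrast shares its HSC controls with the HSC difference and its MPP controls with the MPP difference. Picking a gene for its HSC difference favours low Erg+/+ HSC values, which raise this contrast. Picking it for its MPP difference favours low Erg fl/fl MPP values, which lower it. The p-values and the lack of overlap for Rhd are therefore not independent of the choice of genes. The median of all genes was 0.122 in this contrast and 0.0238 after median centring, which left 0.01 for Epor, 0.65 for Rhd, 0.23 for Alas2 and 0.34 for Slc4a1. The Epor difference was -0.03 without Erg+/+ HSC replicate 1, so its sign is not settled. For Slc4a1, dropping Erg fl/fl replicate 3 gave 0.08, and dropping replicate 2 of the HSC controls gave 0.77. The control groups also differ in pIpC and in the floxed alleles, which cannot be told apart from the population.

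The 4 genes did not peak on the same samples. Among Erg+/- HSCs, Epor and Rhd were highest in replicate 3, Alas2 in replicate 2 and Slc4a1 in replicate 1. Replicate 3, with the highest Epor, had the lowest Alas2, and replicate 2, with the highest Alas2, had the lowest Epor. Among Erg-/- MPPs, Epor and Slc4a1 were highest in replicate 2, the sample with the lowest Alas2. Over all 12 arrays, the deviations of Epor and Alas2 from their group means correlated at -0.852, those of Rhd and Slc4a1 at 0.474 and those of Epor and Rhd at 0.41. The other 3 pairs lay between -0.134 and 0.159. These values describe 12 arrays in 4 groups, with Epor's 2 extreme Erg+/- HSC samples among them, and carry no p.

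**Figure D2:**
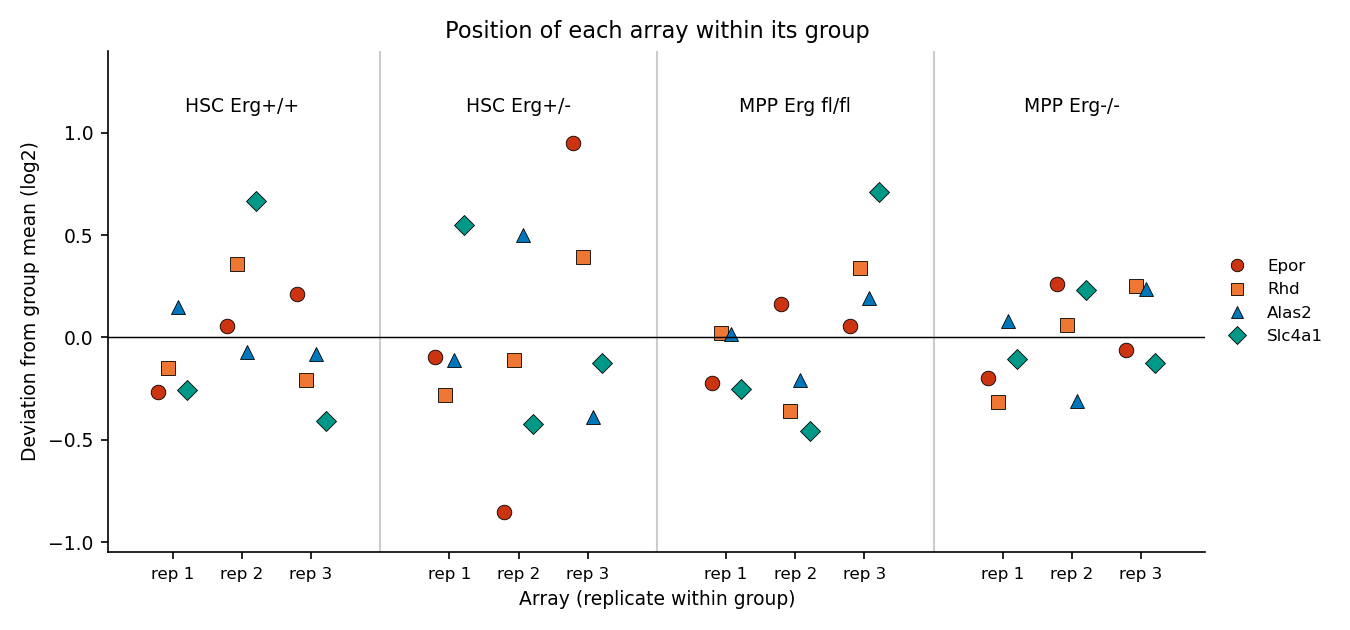
Deviation of each gene from the mean of its group (log2, vertical axis) on each of the 12 arrays (horizontal axis, replicates within groups), with 1 symbol per gene. Epor is 0.95 above its mean in Erg+/- HSC replicate 3 and 0.85 below it in replicate 2, while Alas2 is 0.39 below and 0.50 above on the same arrays.

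Without removing the group means, the values of the 4 genes over the 12 arrays correlated at 0.03 (Epor and Alas2) to 0.72 (Rhd and Slc4a1), which includes the differences they were picked for. The 5 genes with the highest correlation to each member over the 12 arrays included 0 of the red-cell pathway lists among 20 names. For Epor they were Lrp8, a lipoprotein receptor gene, at r = 0.925, Kif7, a kinesin of Hedgehog signalling, at 0.907, Cd177 at 0.884, Tacr1, a neurokinin receptor gene, at 0.868, and Pigv at 0.853. For Rhd they were Shroom2 at 0.876, Fblim1 at 0.874, Zfp940 at 0.867, Rcc1l at 0.863 and Krt2 at 0.857. For Alas2 they were Lrrc71 at 0.944, Mcpt1, a mast cell protease gene, at 0.938, Pgap3 at 0.931, Yap1 at 0.889 and Tspear at 0.865. For Slc4a1 they were Satl1 at 0.915, Diras2 at 0.912, Fcna, a macrophage ficolin gene, at 0.909, Dnah1 at 0.9 and Sobp at 0.871. With 9984 genes and 12 arrays, high correlations arise in number, and these are a description. Among the 50 highest for at least 3 of the 4 genes stood Kel, the gene of a red cell blood group protein (0.825 with Epor, 0.749 with Rhd, 0.766 with Slc4a1 and 0.216 with Alas2), and Ccdc159.

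The other genes of red cell formation came from 8 pathway lists, in which 60 of 158 genes apart from the 4 had a value. The lists were chosen with earlier results of these arrays known, so their counts and medians are a description. In HSCs 0 of the 60 were called in either direction, 40 had positive differences where 53.8% of all genes did, and the median was 0.11 log2 units against 0.0241 over all genes. In MPPs 0 of 60 were called, 34 had positive differences where 49.4% of all genes did, and the median was 0.0569 against -0.00395. Without the 2 arrays of lowest weight in the fit (Erg+/+ HSC and Erg fl/fl MPP replicate 1), 37 and 34 were positive, and without Erg-/- MPP replicate 2 the MPP count was 28 of 60 and the MPP median -0.0186. With only genes above the 50th percentile of mean level, 20 of 35 were positive in HSCs and 17 of 35 in MPPs, and the MPP median was also negative, at -0.0426. The HSC median was 0.0629 without Erg+/+ replicate 1. At an unadjusted p under 0.05, 4 were higher and 1 was lower in HSCs, and 2 were higher and 1 was lower in MPPs (limma, 60 genes each). Groups did not overlap for 4 genes higher and 3 lower in HSCs (6.06% and 4.38% of all genes), and for 4 higher and 5 lower in MPPs (4.36% and 6.1%). In the control comparison 41 of 60 were positive against 62.4% of all genes, 12 were higher and 4 lower without overlap (18.5% and 8.54%), and 1, Bnip3l, was called, lower in MPPs.

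**Figure D3:**
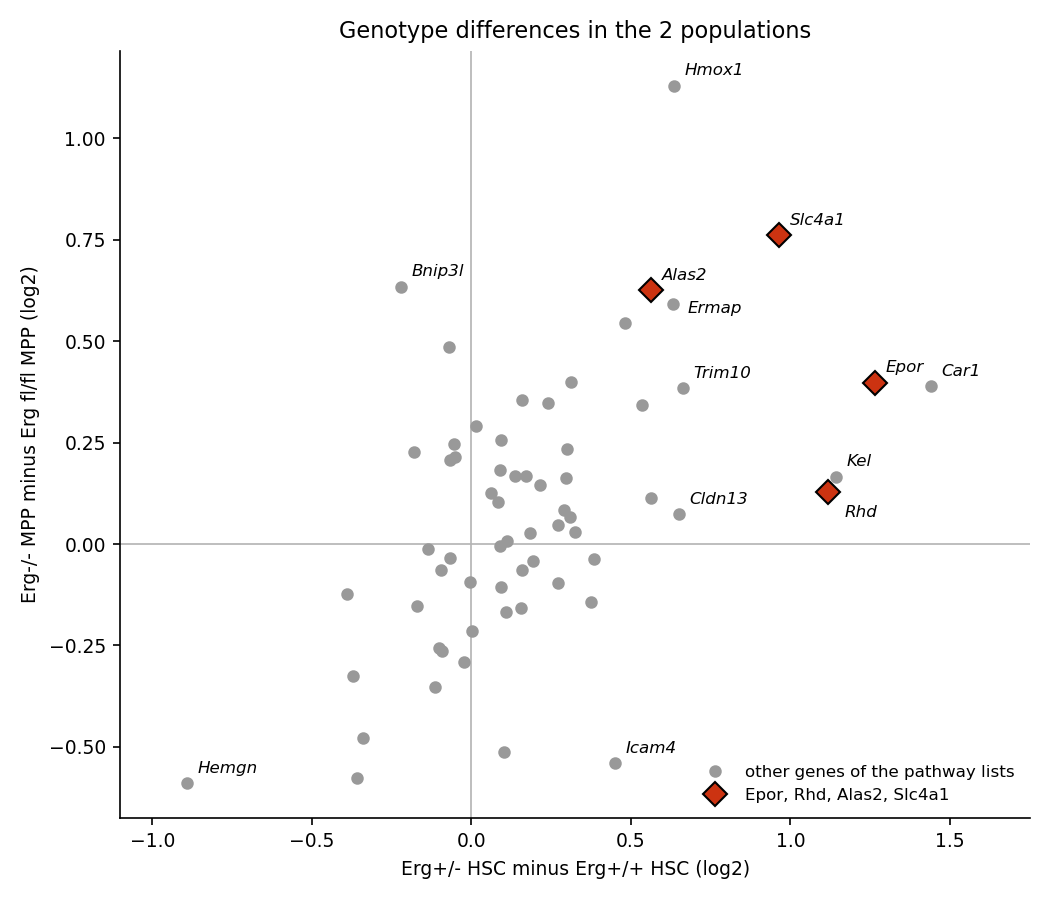
Difference in HSCs (Erg+/- minus Erg+/+, log2, horizontal axis) against the difference in MPPs (Erg-/- minus Erg fl/fl, log2, vertical axis) for the 4 genes (red) and the 60 other measured genes of the pathway lists (grey). The 4 genes were picked for these values and sit in the upper right, with 28 grey points positive in both and 14 negative in both; for all genes 28.9% were positive in both.

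Of the 26 genes besides Epor on the erythropoietin signalling list, 8 were measured, and 1 of these is the hormone gene Epo. Jak2, Stat5a and Cish were among those without a value, so the list covers the pathway only in part. The median of the 8 was -0.045 log2 units in HSCs and -0.0706 in MPPs, with 3 positive in each. Stat5b, a transcription factor activated by the receptor, stood at -0.37 in HSCs and -0.33 in MPPs, and Inpp5d, a phosphatase that dampens cytokine signals, at -0.39 in HSCs. Bcl2l1, the survival gene that STAT5 induces in erythroid cells, stood at -0.29 in MPPs, and Socs1, a feedback inhibitor of JAK kinases, at 0.26. Erfe, the hepcidin regulator that erythropoietin induces, stood at 0.18 in HSCs. None of these passed (limma, adjusted p of 0.871 or more), and in the control comparison 0 of the 8 were called either, with Stat5b at -0.44, Inpp5d at -0.40 and the adaptor gene Grb2 at -0.33.

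Of the heme synthesis list, 9 genes besides Alas2 were measured, with 7 positive in HSCs (median 0.216) and 5 in MPPs (median 0.0294). Hmox1, which encodes the heme-degrading oxygenase and so acts opposite to Alas2, had the lead in both. It stood at 0.63 log2 units in HSCs and at 1.13 in MPPs, from 5.82 ± 0.381 in Erg fl/fl to 6.95 ± 0.233 in Erg-/- samples (SD, n = 3 each), with groups that did not overlap. It did not pass over all genes in MPPs (limma, unadjusted p = 0.00368, adjusted p = 0.645), nor in the control comparison at -1.09 (adjusted p = 0.101). Of the other genes of this list, the mitochondrial glycine carrier gene Slc25a38 stood at 0.33 in HSCs and the heme exporter gene Flvcr1 at 0.27 in HSCs. Clpx, a mitochondrial protease subunit gene, stood at -0.58 in MPPs and the transporter gene Abcb10 at -0.16 in MPPs. In the control comparison Alad, the enzyme after Alas2 in the pathway, stood at -0.57 and Clpx at -0.41, and 0 of the 9 were called.

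Of the iron list, 7 genes were measured and 0 were called in any of the 3 comparisons. Glrx5, needed for iron-sulfur clusters and erythroid heme synthesis, stood at 0.56 in HSCs and at 0.92 in the control comparison (limma, adjusted p = 0.789 and 0.0811). Steap3, the endosomal ferrireductase of erythroid cells, stood at 0.31 and 0.54 in the same order. Aco1, an iron sensor gene, stood at 0.38 in HSCs. In MPPs the iron-sulfur scaffold gene Iscu stood at -0.51, the ferritin receptor gene Ncoa4 at -0.35 and the ferritin gene Fth1 at -0.15, where it was 0.17 in the control comparison.

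Of the list with Rhd and Slc4a1, which holds blood group and membrane transport proteins, 7 further genes were measured. Kel, which encodes the Kell glycoprotein, was close to Rhd in size in HSCs, from 4.53, 4.71 and 4.47 in Erg+/+ to 6.21, 4.88 and 6.05 in Erg+/- samples, a difference of 1.14 log2 units (SE 0.292). The groups did not overlap, Erg+/- replicate 2 lay close to the controls, and Kel did not pass over all genes (limma, adjusted p = 0.439) except without that replicate (1.56, adjusted p = 0.0137). In MPPs Kel stood at 0.17 and in the control comparison at 0.54. Ermap, a blood group protein gene, stood at 0.63 in HSCs and at 0.59 in MPPs. Icam4, an adhesion protein of red cells, stood at 0.45 in HSCs and at -0.54 in MPPs, and the water channel gene Aqp1 at 0.40 in MPPs and -0.62 in the control comparison. Cd47, a marker of self on red cells and most other cells, stood at 0.58 in the control comparison (adjusted p = 0.0953 by limma), and it passed with a robust intensity trend in the fit (adjusted p = 0.0341). In the fit used throughout, 0 of the 7 were called in any comparison.

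Of the membrane skeleton list, 8 genes were measured, with medians of 0.0864 in HSCs, 0.115 in MPPs and 0.101 in the control comparison, and 0 called. Epb42, the protein 4.2 gene, whose product binds band 3, stood at 0.16 in HSCs and at 0.36 in MPPs, where its groups did not overlap. Mpp1, which encodes the membrane protein p55, went the other way at -0.34 and -0.48, and Ppp1cc and Tpm3, which most cells express, stood at 0.16 in HSCs and at -0.21 in MPPs. In the control comparison Sptb, a spectrin gene, stood at 0.35 and Tmod1, which caps the actin filaments of the skeleton, at 0.35.

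Of 13 globin and globin chaperone genes 2 were measured, Hbb-y, an embryonic beta-type globin gene, and Hbq1a, a theta globin gene. Hbb-y values were 3.95, 3.93 and 3.94 in Erg+/+ HSCs and 4.02, 3.66 and 5.58 in Erg+/- HSCs, so replicate 3, the sample with the highest Epor and Rhd, stood far above the controls, replicate 1 just above them and replicate 2 below. In MPPs Hbb-y stood at 0.54 log2 units, and Hbq1a stood at 0.14 in HSCs and 0.17 in MPPs, with 0 of the 2 called. The adult globin genes are not analysed here.

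Of the red cell enzyme and maturation list, 14 genes were measured, with medians of -0.0271 in HSCs and 0.224 in MPPs, and 0 called in either. Trim10, a gene of terminal erythroid cells, stood at 0.66 in HSCs and Pklr, the red cell and liver pyruvate kinase gene, at 0.39 in HSCs and 0.45 in the control comparison. Car1, the carbonic anhydrase gene of early erythroid cells, was named after its values were seen: it had the widest HSC difference of the 60, 1.44 log2 units, with Erg+/+ samples at 9.28, 7.93 and 6.74 that overlapped the Erg+/- samples at 9.94, 8.92 and 9.41 (limma, adjusted p = 0.868). Hemgn, which encodes hemogen, a nuclear protein of stem cells and erythroid cells, lay lower with less Erg in both populations, at -0.89 log2 units in HSCs (limma, unadjusted p = 0.00755, adjusted p = 0.597) and -0.59 in MPPs, and its groups did not overlap in either. Bnip3l, which encodes the receptor that clears mitochondria from reticulocytes, fell from HSC to MPP controls by 1.17 log2 units (limma, SE 0.235, adjusted p = 0.034; lower in 3 of 3 samples) and stood at 0.63 in Erg-/- MPPs. It missed the threshold in 5 of the 6 cases of leaving out 1 control array, all but that of Erg fl/fl replicate 1, and also over all probe sets and without the 2 arrays of lowest weight. Gpx1, an antioxidant enzyme gene, stood at 0.23 in MPPs and Tmcc2 at -0.50 in the control comparison.

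Of 26 erythroid transcription factor genes 5 were measured, with medians of 0.171 in HSCs, 0.0462 in MPPs and 0.166 in the control comparison. Gata1, whose product binds GATA motifs such as those printed above, had values of 5.56, 5.51 and 5.47 in Erg+/+ HSCs, 5.72, 6.30 and 5.39 in Erg+/- HSCs, 5.79, 6.00 and 5.91 in Erg fl/fl MPPs and 5.83, 6.11 and 6.00 in Erg-/- MPPs. It stood at 0.29 log2 units in HSCs, at 0.08 in MPPs and at 0.39 in the control comparison (limma, adjusted p = 0.914, 0.998 and 0.283). Klf1, the erythroid Krüppel-like factor gene, stood at 0.27 in HSCs, Tfdp2, an E2F partner gene, at 0.17 in each of the 3 comparisons, and Phf6 at -0.26 in MPPs and 0.18 in the control comparison. None of the 5 was called.

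**Figure D4:**
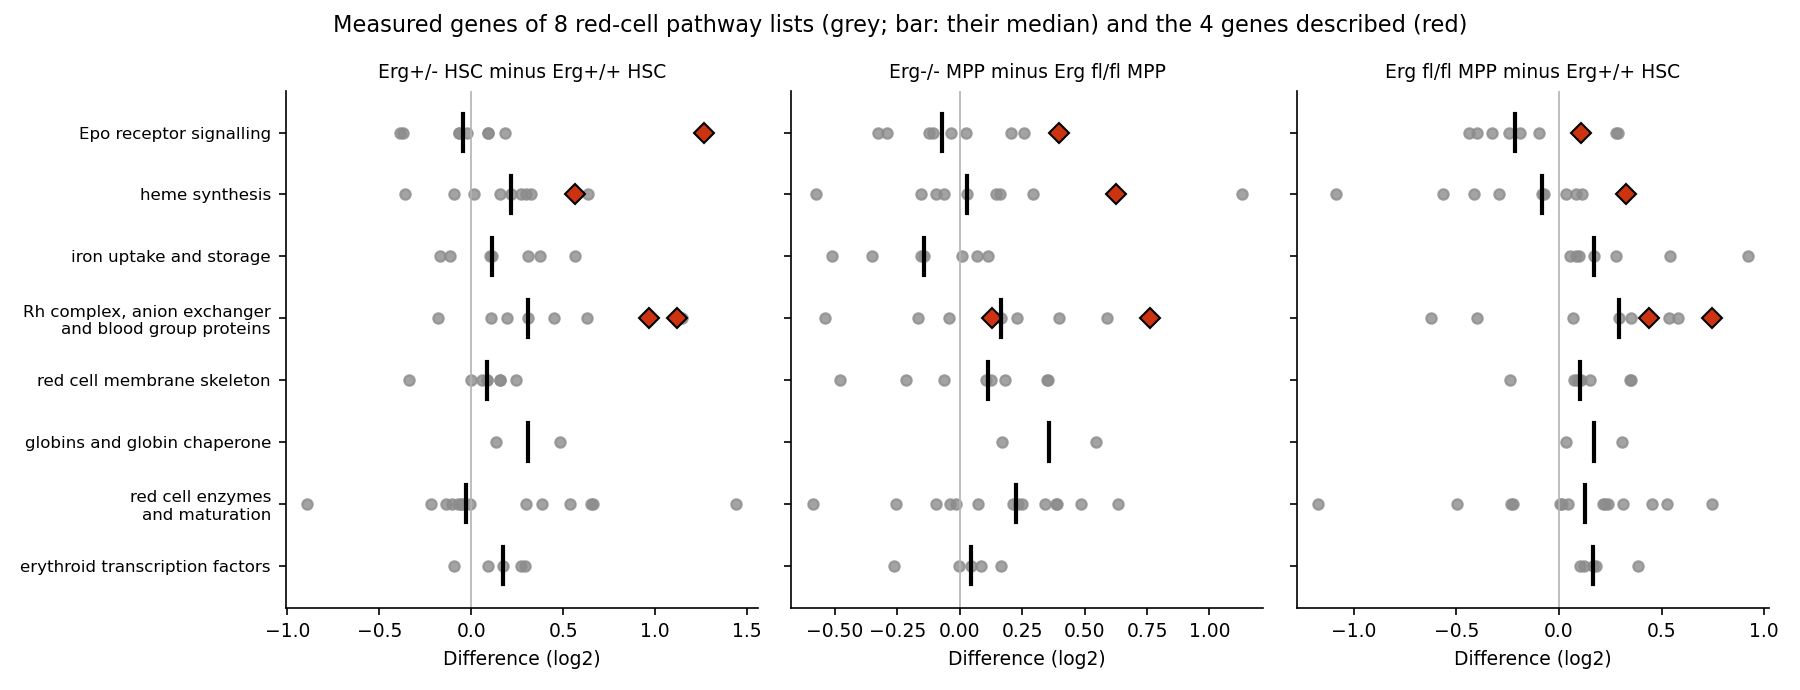
Differences (log2, horizontal axis) of the measured genes of the 8 pathway lists in HSCs, in MPPs and between the control groups, with grey points for genes, a black bar for the median of the grey points and red diamonds for Epor, Rhd, Alas2 and Slc4a1. Epor was picked for its HSC difference, so nothing is read from its place above the grey points of its list there, whose median is -0.045. Over all panels 1 grey point, Bnip3l in the control comparison, passed the test.

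Markers of other cells that such sorts could hold were read beside the 4 genes. Over all genes, 53.8% of differences were positive in HSCs and 49.4% in MPPs. Of 12 measured markers of endothelium and stroma, 9 lay lower in Erg+/- HSCs. Gsn, Fn1 and Dcn lay higher, at 0.48, 0.22 and 0.09 log2 units. Sparc, among the lower ones, passed the test, where 0.01% of all genes were called lower. The marker lists were chosen with earlier results of these arrays known, so the counts and sums here are a description. The summed signal (linear scale, arbitrary units) was 1926 to 2239 in Erg+/+, 1378 to 1414 in Erg+/-, 688.9 to 853.4 in Erg fl/fl and 635.0 to 736.8 in Erg-/- samples. Eng made the largest part of each HSC sum, with mean log2 values of 10.03 in Erg+/+ HSCs, 9.69 in Erg+/- HSCs and 6.42 in Erg fl/fl MPPs. Cxcl12 stood at 9.09 in Erg+/+ HSC replicate 1, against 6.08 and 7.03 in replicates 2 and 3. Of 5 measured genes of the macrophages that surround maturing red cells (Spic, C1qa, C1qb, C1qc and Hmox1), 3 were higher in Erg+/- HSCs and 5 in Erg-/- MPPs. Their summed signal was 271.4 to 437.2 in Erg+/+ HSCs, 337.9 to 876.0 in Erg+/- HSCs, 215.1 to 277.7 in Erg fl/fl MPPs and 360.5 to 386.8 in Erg-/- MPPs, so it differed between the MPP groups without overlap. The MPP differences were 1.15 log2 units for Spic and 1.13 for Hmox1, but 0.15, 0.37 and 0.34 for C1qa, C1qb and C1qc. Hmox1 belongs to this list and to the heme list, and 0 of these 5 genes were called. Of 9 megakaryocyte and platelet markers 6 were lower in Erg+/- HSCs and 6 in Erg-/- MPPs, with sums of 876.6 to 1005, 764.6 to 850.3, 431.2 to 480.8 and 429.6 to 483.6 in the order of groups above. Mmrn1, which belongs to this list and to the HSC-associated one, fell from a mean of 8.905 in Erg+/+ HSCs to 4.601 in Erg fl/fl MPPs. The rest of the list differed between these controls by -0.477 (Gp5) to 0.54 (Tubb1) log2 units, so the lower MPP sums mainly follow Mmrn1. An array value has no true 0, so no marker can be called absent. The part of these cells in the values of Epor, Rhd, Alas2 and Slc4a1 was not tested.

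**Figure D5:**
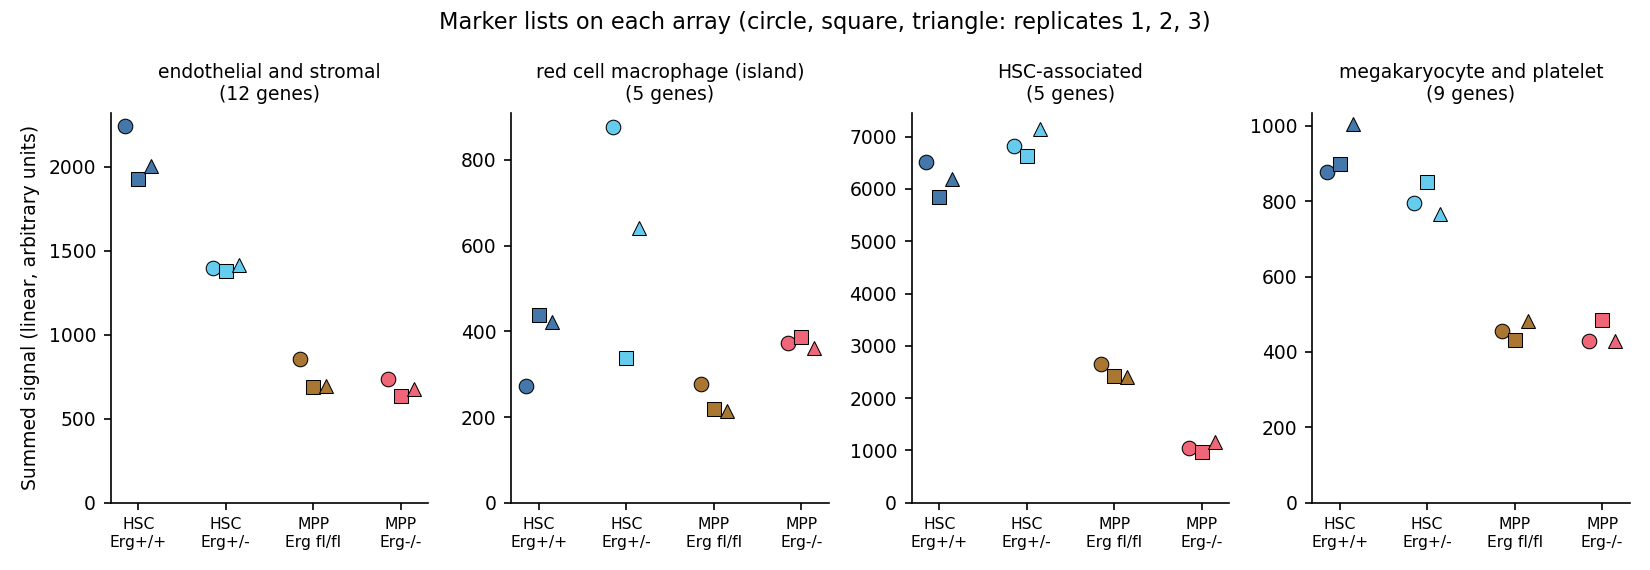
Summed linear signal (arbitrary units, axis from 0) of 4 marker lists on each array, by group, with circles, squares and triangles for replicates 1, 2 and 3. The sums of endothelial and stromal markers lie lower in Erg+/- than in Erg+/+ HSCs. Those of erythroid-island macrophage genes lie higher in Erg-/- than in Erg fl/fl MPPs, with no overlap in either case. The lists were chosen with earlier results of these arrays known, so this is a description.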

How the data were processed

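RNA of 12 sorted samples (20 ng of total RNA each) was amplified and hybridised. Deposited values run from 0.939 to 13.4 on a log2 scale; RMA and affy are named in the submitters' processing notes. RMA summarises probes after background correction, which compresses folds of dim genes. Whether the arrays were normalised jointly, and the build, are not given in the sources used here. Of 18719 probe sets 10657 have 1 gene symbol, 523 several and 7539 none in the annotation used. The probe set with the highest mean stood for a gene, leaving 9984 genes.

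One limma model (limma 3.58.1, R 4.3.3) gave a mean per group over 12 arrays, with 8 residual and 4.35 prior degrees of freedom, two-sided p-values adjusted by Benjamini-Hochberg over all 9984 genes, a threshold of 0.05 and no filter on dim genes. It was tested on simulated data. The genes and lists were chosen with earlier results of these data known. From each pathway list up to 3 genes per comparison were named, called genes first and then by p, beside the 5 genes most like each member. Of 9 marker lists, those of T and NK cells, B cells, mast cells and basophils, granulocytes and monocytes, and early lymphoid cells appear in the closing section. The alternatives tried were the replicate number as a block, dropping genes below the 25th or 50th percentile, averaging probe sets, quantile normalisation once more, centring on medians, a trend in intensity, array weights, only the arrays compared, all probe sets and leaving out each array. Leaving out the 2 arrays of lowest weight was chosen after seeing the data.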

Additional observations from a re-analysis of the deposited data

How the results depend on the processing

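The count of called genes over all genes was 2 in HSCs, 8 in MPPs and 128 between controls. In HSCs it was 1 with the replicate block, 7 with the filter at the 25th percentile, 0 with means of probe sets, 5 with an intensity trend, 0 with only the HSC arrays, 0 without the 2 arrays of lowest weight, and 1 to 8 with 1 array left out. In MPPs it was 5 to 7 with 1 array left out and 4 without the 2 arrays of lowest weight. Between controls it was 61 with only those arrays, 60 over all probe sets, 61 without the 2 arrays of lowest weight and 47 to 150 with 1 array left out. Deviations of same-numbered samples correlated at -0.0852 to 0.104. For replicate 3 these lay above the highest value with another number in each pair of groups compared (such as 0.0862 against -0.026 in MPPs). For replicate 2 they lay below it in each pair (such as -0.0852 against 0.0511). Whether same-numbered samples share a batch can therefore not be told from these values. With the block 8 genes in MPPs and 139 between controls were called. Each difference of Epor, Rhd, Alas2 and Slc4a1 kept its sign under the 10 alternatives other than leaving out an array. With 1 array left out the sign turned in 2 cases: Rhd in MPPs ranged from -0.0524 (without Erg fl/fl replicate 2) to 0.299, and Epor between controls from -0.0262 (without Erg+/+ HSC replicate 1) to 0.219. The cause was not tested. Between controls, no difference of the 4 genes passed the threshold under any alternative run, and the lowest adjusted p was 0.111, for Rhd. Between controls, 18 of 35 pathway genes were positive with the filter at the 50th percentile, and 29 of 60 after median centring, in place of 41 of 60; with the same filter 20 and 17 of 35 were positive in HSCs and MPPs. Signal close to background limits low values such as those of Hbb-y. The members were not bright either: the median of the gene means over all arrays was 5.81. In Erg+/+ HSCs the means of Epor (5.73), Rhd (5.21) and Alas2 (5.69) lay below it, and that of Slc4a1 (6.01) lay above. Kel had a mean of 4.57 there, where the 25th percentile of gene means was 4.695.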

Other observations

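Samples of Erg+/- HSCs differed in which red-cell genes were high. Replicate 1 had the highest Slc4a1 and also the highest Hmox1 (8.31 against 7.49 and 6.82 in replicates 2 and 3), Tspo2 (5.95 against 4.35 and 4.43), Kel (6.21) and Car1 (9.94), and the highest summed signal of erythroid-island macrophage genes (876.0 against 337.9 and 641.7). Replicate 3 had the highest Epor, Rhd and Hbb-y, and the highest Spic, a transcription factor gene of iron-recycling macrophages (8.65 against 7.89 and 5.18). Replicate 2 had the highest Alas2 and Gata1 (6.30 against 5.72 and 5.39) and the lowest Hemgn (5.93 against 7.20 and 6.36). These genes were singled out after their values were seen.

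Genes of other lineages were also read in MPPs, where 0.0801% of all genes were called. Of 5 measured B cell genes 2 fell in Erg-/- MPPs (Vpreb1 and Igll1), of 6 on the granulocyte and monocyte list 2 (Nkg7 and Serpinb1a), of 4 mast cell and basophil genes 1 (Mcpt8), and of 6 early lymphoid and 3 T and NK cell genes 0 (limma, adjusted p under 0.05), and 0 genes of these 5 lists rose. On the granulocyte and monocyte list Cst7 stood at -1.65 without passing, and Fcgr3, Cd68 and Cebpe stood at 0.16, 0.06 and 0.26. The lists were chosen with earlier results of these arrays known, so these counts are a description and nothing is read from them. In HSCs 0 genes of these 5 lists were called.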
